A study of Zea mays subsp. mays and Zea mays subsp. parviglumis and Zea luxurians with 126 samples.

Results

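The sites described here are candidate cuts that 21-nt phasiRNAs may make in ordinary annotated transcripts of *Zea* anthers, as opposed to the transcripts of the *PHAS* loci that phasiRNAs themselves come from. A site was taken where the small RNA came from a *21-PHAS* locus, the target was neither a *21-PHAS* nor a *24-PHAS* transcript, and the Allen score, a penalty for mismatches between small RNA and target that is 0 for perfect pairing, was at most 4. After splice forms of a gene were joined, 1221 sites remained of 20041 phasiRNA sites of all kinds. They connected 757 source loci with 1213 genes, in 5193 of the 88804 entries of the phasiRNA tables. There were 326 sites in the B73 genome, 316 in TIL11, 160 in Il14H, 144 in HP301, 138 in Oh43 and 137 in TIL25.

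Anthers were collected at set lengths from 4 inbred lines of maize (B73, HP301, Il14H, Oh43), from the teosintes TIL11 and TIL25, and from plants carrying mutations in the *AGO18* genes. Here 55 nanoPARE libraries in 21 groups of 2 or 3 biological replicates were used. The maize lines were sampled at 0.4 mm, which is premeiotic, and at 2 mm, which is meiotic. TIL11 was sampled at 0.4 and 0.7 mm (premeiotic), 1 mm, and 1.5 and 2 mm (meiotic), and TIL25 at 0.4 mm (premeiotic) and 1.5 mm. The ago18HM plants were homozygous for mutant alleles of *ago18a*, *ago18b* and *ago18c*, and the ago18HT siblings were heterozygous at all of them. Frameshift alleles made with CRISPR/Cas9 disrupted *ago18a* and *ago18b*, a Mu transposon insertion disrupted *ago18c*, and both genotypes were free of the transgene in a background labelled as mostly B73. Both were sampled at 0.5 mm (premeiotic), 2 mm (meiotic) and 5 mm (postmeiotic). The maize plants grew in a greenhouse and the teosintes in a growth chamber with a shorter day, so these conditions cannot be told apart from the variety. The tables hold cut sites and no expression levels, so neither *AGO18* transcripts nor anther marker genes could be checked in them. The values below cover every listed site with good pairing, whether or not it passed the authors' threshold.

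In grass anthers, miR2118 directs the cutting of long noncoding *21-PHAS* precursors, and DICER-LIKE4 dices the resulting double-stranded RNA into phased 21-nt phasiRNAs, which Argonaute proteins then bind. A plant Argonaute cuts a well-paired target between the bases that face positions 10 and 11 of the small RNA, counted from its 5′ end. NanoPARE captures RNA 5′ ends, including the end of the 3′ fragment left by such a cut, and the EndCut step of its pipeline asks whether the reads starting at the predicted position stand out from the rest of the transcript.

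The phasiRNA sequences below carry the results that follow. The first 4 were listed at the highest or steadiest levels, the next pair supplied many of the TIL11 targets that passed the authors' threshold, that of 21PHAS_40054_B73 was listed against many genes in several genomes, and the last pair each matched a gene perfectly. Each is written 5′ to 3′ with bases 10 and 11 in capitals.
21PHAS_22320_TIL11: ccacaacauCGuccacccuag
21PHAS_8645_Oh43: agcaacauuUAacuuugagac
21PHAS_20090_Il14H: gaauugcagCAgguggagucc
21PHAS_4249_B73: auugaacucUAguugauguug
21PHAS_29223_TIL11: uaacaaaaaACgagccacugu
21PHAS_9870_TIL11: uuuaaauauAUguccgacugu
21PHAS_40054_B73: caaucgucuUCauccuuccug
21PHAS_12500_Il14H: uacuagaacUGauagacgugg
21PHAS_5853_Oh43: acaugaggaCUucagcacuuu

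In the assembly of each line, the locus 21PHAS_22320_TIL11 lies at chr5:6178840-6180696, 21PHAS_29223_TIL11 at chr6:76723231-76724105 and 21PHAS_9870_TIL11 at chr2:168341008-168341554. The Oh43 loci 21PHAS_8645_Oh43 and 21PHAS_5853_Oh43 lie at chr2:146148378-146149369 and chr1:296714824-296715207, and the Il14H loci 21PHAS_20090_Il14H and 21PHAS_12500_Il14H at chr6:159770676-159771175 and chr4:141641708-141641944. In B73 RefGen_v5, 21PHAS_4249_B73 lies at chr1:182122453-182123191 and 21PHAS_40054_B73 at chr7:28376223-28376971. Target genes are given by their identifiers, because no annotation paired these with names or functions. Cut positions are predicted from the pairing and counted in bases along the transcript. Whether a position is in a coding or untranslated region was not analysed here.

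Most of these sites rested on very few reads. A site is valued by the reads whose 5′ end falls on the predicted cut, scaled to the size of the library (RPM), and 1 read was taken to be worth the most frequent RPM of that library. Depth found this way was lowest at 1.35 M and highest at 18.7 M reads (median 7.97 M). The 1221 sites gave 2528 values over the libraries, from 0.00076 to 8.33 RPM with a median of 0.161 RPM. Of these values, 1449 (57.3%) were at most 1 read and 398 (15.7%) were fractions of a read. For 309 values (12.2%) the same source and the same RPM stood against another gene of that library. A site was listed in only 1 library in 741 cases (60.7%), in at least 2 libraries in 480 and in at least 5 in 108. The share of a group's genes that appeared in all its replicates was between 2.27 and 22.5%.

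Well-paired and poorly paired sites had like median RPM but unlike shares past the authors' threshold. Sites of 21-nt phasiRNAs on transcripts with an Allen score above 4 had a median of 0.169 RPM over 32624 values, beside 0.161 RPM for the well-paired sites. Within a library the median of the well-paired sites was higher in 9 of 55 libraries, the same in 38 and lower in the others. The median well-paired value was 1 read, and 57.3% were at most 1 read. Medians this low can show little difference in read level between the kinds of site. An adjusted p-value below 0.05, referred to here as passing, was reached by 134 well-paired values (5.30%) and by 59 poorly paired ones (0.181%). The background was 6.7% of all phasiRNA sites and 0.549% of 21-nt phasiRNA sites on transcripts at any score. The share passing was higher for well-paired sites in 42 of 55 libraries. Of the 134 passing values, 68 (50.7%) were at most 1 read. Whether the Allen score enters the deposited p-value is not given in the sources used here, so the share passing cannot be taken as independent of the pairing.

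The share passing was high at the lowest scores and small at the limit. All 18 values at score 0 passed, as did 32 of 42 at score 1 (76.2%), 8 of 9 at score 1.5 (88.9%) and 31 of 70 at score 2 (44.3%). At score 3 it was 6.07% of 280 values, and at score 4, which held 1566 values (61.9% of those described), it was 0.383%. Just outside the limit, at score 4.5, it was 0.212% of 2827 values, and 751 sites lay at score 4 beside 1389 at 4.5. Median RPM showed no such fall and stood at 0.151 at score 0, 0.189 at score 3 and 0.152 at score 4. As most well-paired values were at most 1 read, these medians could show little difference between scores.

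**Figure D1:**
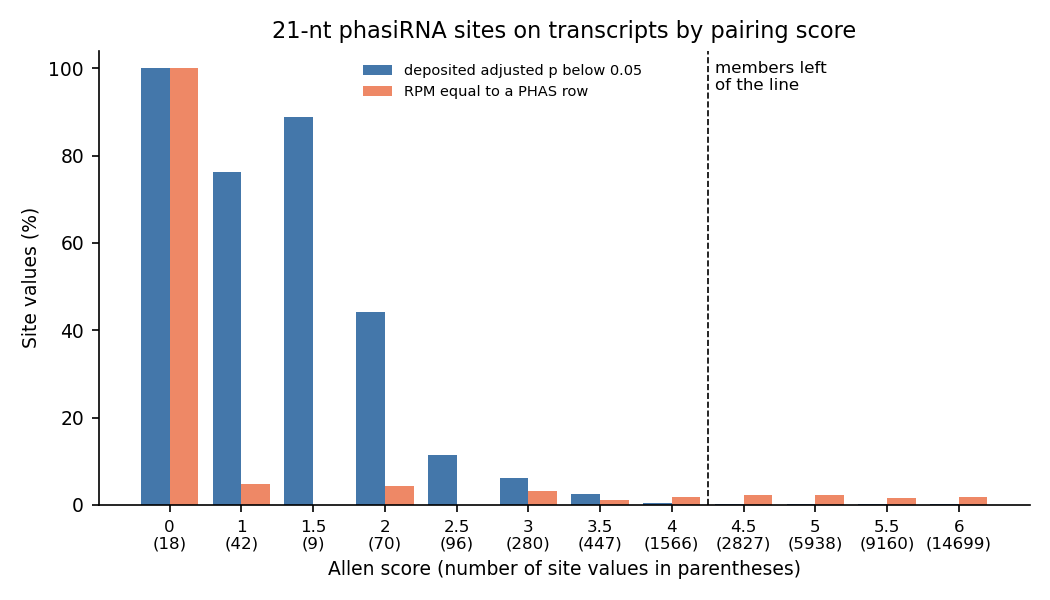
Percent of site values (vertical axis) that had a deposited adjusted p-value below 0.05 (blue) or an RPM equal to that of a PHAS site of the same phasiRNA and library (orange), by Allen score (horizontal axis, with the number of values in parentheses). The blue bars stand at 100% at score 0 and 0.383% at score 4, and the orange bar reaches 100% at score 0 alone.

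Every perfect match carried the value of a *PHAS* transcript. At score 0, every one of the 18 values, on 10 sites, had the same RPM as a *PHAS* transcript listed for the same phasiRNA in the same library. At score 1 this was so for 4.76% of the values, at score 4 for 1.85%, and between scores 5 and 6 for 1.68 to 2.19%. In all, 66 values (2.61%) on 50 genes were equal in this way, and 46 of them were at most 1 read. Among passing values 24 of 134 (17.9%) were equal to a *PHAS* value. Overlap between these genes and *PHAS* loci was not tested, because no annotation of the genomes was used. As to miRNAs, which also guide cuts in these transcripts, 14 values on 6 genes lay at the predicted cut of a miRNA as well, and 0 of these miRNA sites passed. For Zm00001eb019900, Zm00001eb237440 and Zv00002aa012524 that miRNA was miR2118. Their sources, 21PHAS_54597_B73 and 21PHAS_45236_TIL11, shared a sequence longer than 21 bases. Whether that sequence is miR2118 itself was not tested, so these may be miRNA sites.

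Libraries of low depth listed the fewest target genes. The 5 libraries under 3 M reads listed 8 to 23 genes, and the other 50 libraries listed 23 to 73. The B73 libraries listed 54 and 42 genes at 0.4 mm and 47 and 60 at 2 mm. HP301 listed 46 and 44 genes at 0.4 mm and 53 and 54 at 2 mm, Il14H listed 62, 48 and 60 at 0.4 mm and 44 and 41 at 2 mm, and Oh43 listed 27 and 44 at 0.4 mm and 49, 51 and 37 at 2 mm. Thus the groups did not overlap in HP301 and Il14H, in opposite directions, and overlapped in B73 and Oh43.

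**Figure D2:**
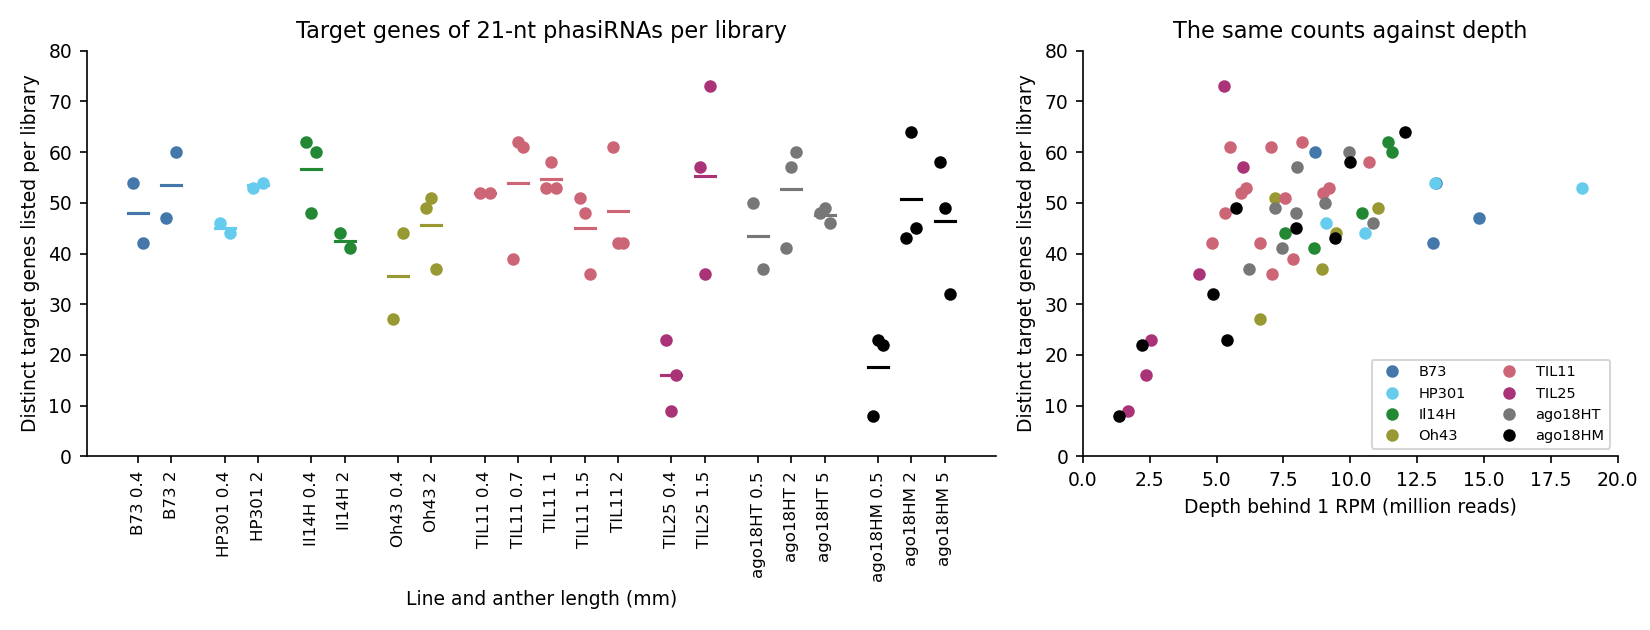
Left, number of distinct target genes listed in each library (points, with group means as lines) by line and anther length in mm. Right, the same counts against the depth of the library in M reads: the 5 libraries under 3 M reads, of TIL25 at 0.4 mm and ago18HM at 0.5 mm, hold 8 to 23 genes.

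Premeiotic and meiotic anthers of the maize lines were compared in a permutation test that exchanged lengths within each line. The mean difference of 0.4 mm minus 2 mm was -0.10 in log2(genes + 1) over 18 libraries, with p = 0.452 (exact permutation test, two-sided) and an adjusted p of 0.509 over the 9 comparisons of this kind. Summed RPM over the sites of a library differed by 0.04 on the log2 scale (p = 0.805 by the exact permutation test, adjusted p = 0.805). Counting only genes that passed turned the sign of the first difference, to 0.60 (p = 0.005 by the exact permutation test, adjusted p = 0.045). That adjustment put this p in the place of the first among the 9 and did not cover the other settings tried. Those counts were small: Oh43 had 3 and 4 passing genes in its 0.4-mm libraries and 1 to 2 at 2 mm, Il14H had 2 to 4 and 0 to 1, HP301 had 1 to 2 and 1, and B73 had 0 at both lengths. Of the 26 passing values in these lines, 13 equalled a *PHAS* value, and their part in this difference was not tested.

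In TIL11 the 0.4- and 0.7-mm libraries listed 39 to 62 genes (52 and 52, then 39, 62 and 61) and the 1.5- and 2-mm libraries 36 to 61 (51, 48 and 36, then 61, 42 and 42), so the stages overlapped. The 3 libraries at 1 mm, in neither stage, listed 53, 58 and 53. The difference between the stages was 0.19 on the log2 scale (p = 0.268 by the exact permutation test, adjusted p = 0.483, 11 libraries). Summed RPM was 13.2 to 16.9 in the premeiotic and 10.5 to 13.7 in the meiotic libraries, a difference of 0.28 on the log2 scale (p = 0.0152 by the exact permutation test). After adjustment over the 9 comparisons this p was 0.136 and did not pass.

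TIL25 listed 23, 9 and 16 genes at 0.4 mm and 57, 36 and 73 at 1.5 mm, without overlap. The log2 difference was -1.76, and its p of 0.1 in the exact permutation test is the smallest that 3 libraries against 3 can give (adjusted p = 0.3). Depth moved with the length: 1.71 to 2.56 M reads at 0.4 mm and 4.33 to 5.97 M at 1.5 mm, and its part in the difference was not tested directly. When only sites of at least 1 read in the shallowest library were kept, the difference was 0.15 (p = 0.7 by the exact permutation test). At 0.4 mm, the average over the teosintes was 0.67 lower than that over the 4 maize lines on the log2 scale (p = 0.333 by the exact permutation test on the 6 lines, adjusted p = 0.483). TIL11, at 52 genes in both libraries, was above the averages of B73, HP301 and Oh43, and TIL25 was below those of all the maize lines.

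The genes that passed were spread unevenly over the lines. TIL11 had 63 passing values of 710 on 38 genes and TIL25 had 30 of 214 on 21 genes, while Oh43 had 12 of 210, Il14H 9 of 261, HP301 5 of 197, the *ago18* plants 15 of 733 and B73 0 of 203. In TIL11 8.87% passed and 11.3% had a score of 2 or less, and in TIL25 14.0% and 6.54%. Both shares were 5.71% in Oh43, 3.45% in Il14H and 2.54% in HP301. They were 2.05 and 2.32% in the *ago18* plants and 0 and 0.985% in B73. The part of the score in this unevenness was not tested. As background, the share of poorly paired sites passing in a library was 0 to 0.365% in TIL11 and 0 to 0.455% in TIL25. It was 0.143 to 0.598% in Oh43, 0% in Il14H, 0.156 to 0.319% in HP301, 0 to 1.39% in the *ago18* plants and 0.142 to 0.573% in B73. The share over all phasiRNA sites was not computed by line. A gene that passed in 2 or more replicates of one group was called positive, and 9 genes were: 4 in TIL11, 3 in TIL25, 1 in Il14H and 1 in Oh43. All 9 are also among the 13 genes that the study lists as targets of 21-nt phasiRNAs, a list drawn from these same samples and so no independent evidence. The other 4 genes of that list, Zm00001eb122210, Zm00001eb086990, Zm00001eb166530 and Zm00027ab384300, have an Allen score of 5.5 and lie outside the limit used here.

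The TIL11 gene with the highest level was Zv00002aa003348. It has a predicted cut at position 1910 of its transcript for the phasiRNA of 21PHAS_22320_TIL11, at a score of 3. It was listed in all 14 TIL11 libraries. Its RPM was 2.11 and 2.37 at 0.4 mm, 2.03, 4.14 and 2.90 at 0.7 mm, 2.18, 1.59 and 0.817 at 1 mm, 3.57, 0.937 and 3.82 at 1.5 mm, and 0.711, 1.24 and 1.36 at 2 mm. The 2-mm libraries were below every premeiotic one, while the 1.5-mm libraries spanned nearly the whole range. Only the 3 highest values passed.

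The same 21 bases were listed against Zm00028ab036660 in Il14H, also at score 3, with the predicted cut at position 1884. Its RPM was 1.67, 2.78 and 2.34 at 0.4 mm and 1.59 and 0.116 at 2 mm, so that both 2-mm values were below those at 0.4 mm, and only the highest value passed. Among all sites, 136 of the 534 phasiRNA sequences that could be read (25.5%) had target genes in at least 2 genomes and 14 had them in at least 4. As background, 617 of the 1502 sequences of listed *21-PHAS* loci (41.1%) were present in at least 2 genomes, with or without such a gene. The list of TIL25 loci at hand was incomplete, so this share is uncertain. For 50 sequences there were genes in at least 2 genomes that were each listed in at least 2 libraries. That such genes are counterparts of one another was not tested, as the genomes were annotated separately.

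The sequence of 21PHAS_8645_Oh43 was paired with the highest levels of all. Zm00039ab040760 in Oh43 had a predicted cut at position 586 at a score of 4. Its RPM was 4.22 and 5.60 at 0.4 mm and 8.33, 2.23 and 5.70 at 2 mm. Zm00027ab040700 in HP301 had a predicted cut at position 582 for the same 21 bases. Its RPM was 1.32 and 6.92 at 0.4 mm and 4.07 and 2.58 at 2 mm. In both genes the lengths overlapped. Despite these levels neither gene passed in any library.

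**Figure D3:**
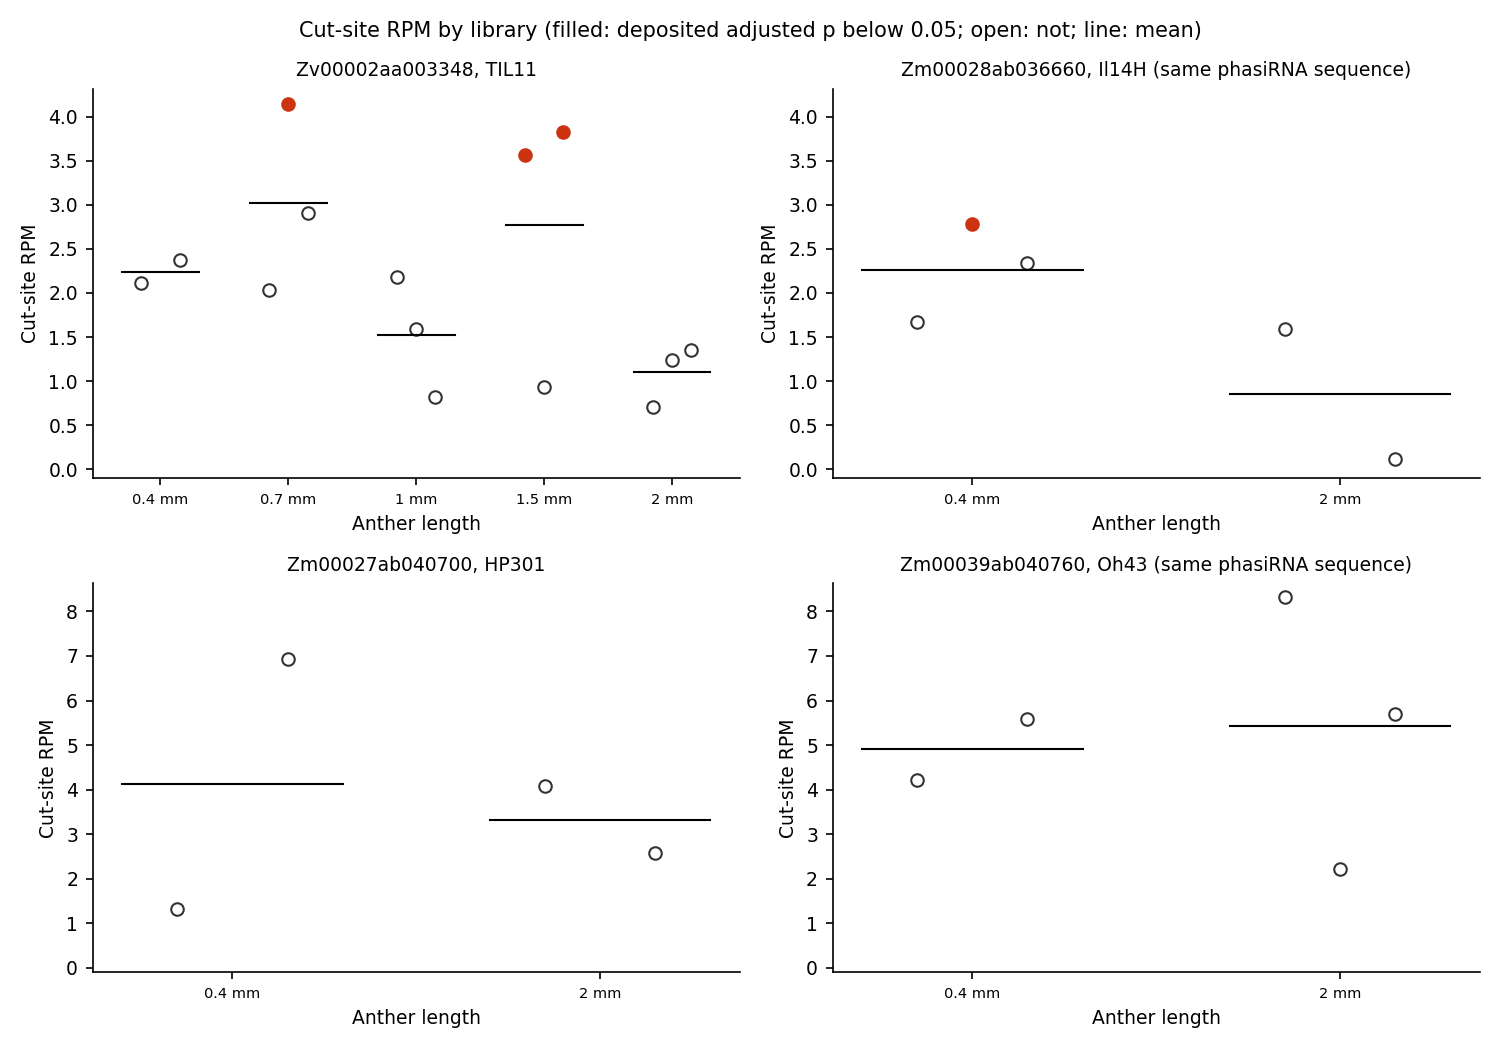
RPM at the cut site (vertical axis) in each library by anther length, for genes of different lines that share a phasiRNA sequence, TIL11 and Il14H above and HP301 and Oh43 below. Filled points passed, open points did not and lines are means. The sites in the lower panels reach 8.33 RPM with no passing value.

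Another sequence shared between lines, that of 21PHAS_20090_Il14H, met Zm00028ab150030 in Il14H and Zm00039ab148180 in Oh43 at a score of 4. The Il14H gene had a predicted cut at position 652. Its RPM was 3.68, 3.16 and 1.90 at 0.4 mm and 0.530 and 1.62 at 2 mm, all 0.4-mm values being higher. The Oh43 gene had 0.453 and 2.01 RPM at 0.4 mm and 3.62, 0.278 and 2.91 RPM at 2 mm, and here the lengths overlapped. The neighbouring identifier Zm00039ab148190 carried the same values, and which of the pair the reads came from cannot be told apart.

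In TIL11, a pair of sources supplied many of the passing sites. The phasiRNA of 21PHAS_29223_TIL11 was listed against 13 genes, all at score 1, at cut positions from 281 to 1455, and 24 of its values, on 12 genes, passed. The values that passed had a median of 0.157 RPM, or 1 read. Zv00002aa007488 was listed in 8 of 14 libraries at 0.109 to 0.320 RPM and passed at 1 mm (0.109 and 0.320 RPM) and at 1.5 mm (0.264 and 0.187 RPM). Zv00002aa020751 was listed in 4 libraries, reaching 1.14 RPM in a 0.7-mm library and 0.163 to 0.218 RPM in the other 3, and passed in all 4. The phasiRNA of 21PHAS_9870_TIL11 was listed against 9 genes and had 9 passing values. Among its genes was Zv00002aa036951, with a predicted cut at position 701. That gene passed at 0.487 RPM in a 0.7-mm library, 0.187 in a 1.5-mm library, and 0.711 and 0.302 RPM at 2 mm. For both sources the genes differed between libraries, with most of them listed in 1 to 3.

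Other sources had many genes and few passing values. The sequence of 21PHAS_40054_B73 was listed against 35 genes in 5 genomes, 9 each in B73 and TIL11, 6 each in Oh43 and TIL25 and 5 in Il14H. Its 163 values over 41 libraries had a median of 0.0750 RPM, 66.9% of them were below 1 read, and 2 passed.

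In TIL25, Zx00003aa019311 was the only gene among those described that passed in every library of its line. It has a predicted cut at position 2055, at a score of 1.5, for a phasiRNA of 21PHAS_7749_TIL25. Its RPM was 1.17, 3.52 and 2.52 at 0.4 mm and 0.167, 0.462 and 0.378 at 1.5 mm, without overlap. These values stood for 3, 6 and 6 reads at 0.4 mm and 1, 2 and 2 reads at 1.5 mm. Depth also differed, at 1.71 to 2.56 M reads at 0.4 mm and 4.33 to 5.97 M at 1.5 mm, and its part was not tested. The difference between the lengths was 2.46 ± 0.63 (SE) on the log2(RPM + 0.1) scale, with an adjusted p of 0.0436 in limma. With the replicate numbers as a block this adjusted p was 0.0917, and with a pseudocount of 0.02 RPM 0.0986.

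Other TIL25 genes had their listed values mostly at 1.5 mm. Zx00003aa001224 (score 3.5) had 0.390, 0 and 0 RPM at 0.4 mm and 1.84, 0.693 and 0.189 RPM at 1.5 mm, and passed in the 3 libraries at 1.5 mm. Zx00003aa022033 (score 3.5), with a predicted cut at position 3920, was unlisted at 0.4 mm and had 0, 0.231 and 0.756 RPM at 1.5 mm. Zx00003aa011395 (score 3) had 0, 2.34 and 0 RPM at 0.4 mm and 0.670, 1.15 and 0 RPM at 1.5 mm. Here and below, 0 means that the library's table did not list the site. Lengths overlapped in each of these genes.

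**Figure D4:**
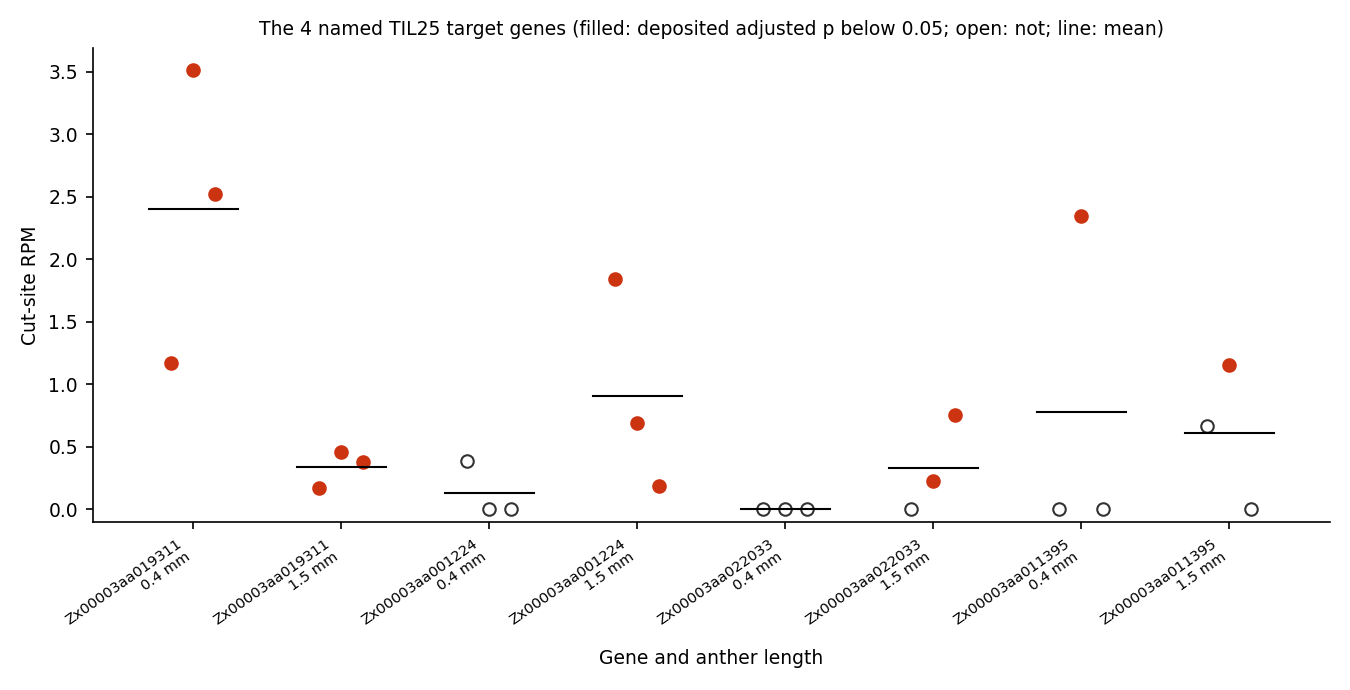
RPM at the cut site (vertical axis) in each TIL25 library for 4 target genes at 0.4 and 1.5 mm. Filled points passed, open points did not and lines are means. Zx00003aa019311 passed in all 6 libraries and was higher at 0.4 mm (1.17 to 3.52 RPM, 3 to 6 reads) than at 1.5 mm (0.167 to 0.462 RPM, 1 to 2 reads).

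The 2 positive genes of the maize lines were both perfect matches with a value equal to that of a *PHAS* transcript. Zm00028ab189950 in Il14H had a predicted cut at position 510. It had 0.0877, 0.0958 and 0.173 RPM at 0.4 mm, that is 1 or 2 reads, and was unlisted at 2 mm. Zm00039ab062810 in Oh43 had a predicted cut at position 1178. Its RPM was 0.151 and 0.422 at 0.4 mm and 0, 0.278 and 0.224 at 2 mm. Every listed value of both genes passed and every one equalled a *PHAS* value.

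Single sites were then compared between lengths by limma on log2(RPM + 0.1), with all phasiRNA sites of a line listed in at least 2 libraries in the fit. In B73, 8 of the 46 well-paired sites tested had an adjusted p below 0.05, beside 25.3% of all sites tested. The counts were 1 of 61 in Il14H beside 3.62%, 2 of 43 in Oh43 beside 16.9%, 1 of 135 in TIL11 beside 8.18% and 1 of 44 in TIL25 beside 14.4%. In HP301 limma called 0 of 40, beside 0%, and 10 of the 40 (25.0%) had an unadjusted p below 0.05, beside 24.0% of all 700 sites tested. In each line the well-paired sites were called less often than, or as often as, sites of all kinds, and this difference was not tested. A site listed in the 2 libraries of one length only passes the filter through that length and so had to differ, and with sites of a single library included 0 were called in B73, Il14H, Oh43 and TIL25.

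The called sites were mostly of that kind. Zm00001eb403640 in B73 had 0.303 and 0.229 RPM at 0.4 mm and 0 at 2 mm (adjusted p = 0.0187 in limma), and Zm00001eb217950 behaved likewise with 0.151 and 0.209 RPM. Zm00001eb036560 was unlisted at 0.4 mm and had 0.135 and 0.115 RPM at 2 mm, 2 reads and 1 read. Zm00001eb062170 and Zm00001eb440720, both from 21PHAS_40054_B73, had identical values of 0.114 and 0.115 RPM at 0.4 mm alone. In Il14H, Zm00028ab189890 was unlisted at 0.4 mm and had 0.397 and 0.463 RPM at 2 mm (adjusted p = 0.0323 in limma). In Oh43, Zm00039ab083490 had 0.210 and 0.186 RPM at 0.4 mm alone. Zm00039ab215670 was listed at both lengths, with 0.453 and 0.739 RPM at 0.4 mm and 0, 0 and 0.112 RPM at 2 mm, and differed by 2.41 ± 0.49 (SE) on the log2(RPM + 0.1) scale (adjusted p = 0.0344 in limma). In TIL11, Zv00002aa035107 was listed at 1.5 mm alone, at 0.132, 0.187 and 0.425 RPM (adjusted p = 0.0481 in limma).

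AGO18 belongs to a clade of Argonautes expressed in grass anthers, and the comparison of ago18HM with ago18HT asked whether cuts by 21-nt phasiRNAs depend on it. ago18HM listed 8, 23 and 22 genes at 0.5 mm, 43, 64 and 45 at 2 mm and 58, 49 and 32 at 5 mm. ago18HT listed 50 and 37 at 0.5 mm, 41, 57 and 60 at 2 mm and 48, 49 and 46 at 5 mm. The genotypes did not overlap at 0.5 mm, where ago18HM was lower, and overlapped at the other lengths. At 0.5 mm the ago18HM libraries held 1.35 to 5.40 M reads and the ago18HT libraries 6.22 to 9.06 M. The log2 difference within lengths was -0.50 (p = 0.0878 by the exact permutation test, adjusted p = 0.3, 17 libraries). With the 2- and 5-mm libraries alone, a choice made after the data were seen, it was -0.07 (p = 0.67 by the exact permutation test).

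Summed RPM differed by -0.13 on the log2 scale between ago18HM and ago18HT (p = 0.376 by the exact permutation test, adjusted p = 0.483). At 2 mm all ago18HM libraries were lower, at 7.07 to 9.55 RPM beside 10.1 to 12.7 RPM, and at 0.5 and 5 mm the genotypes overlapped. No single well-paired site was called among 137 tested by limma, beside 0% of 2236 sites of all kinds, and 2 of the 137 (1.46%) had an unadjusted p below 0.05, beside 5.28% of all sites tested. Passing sites were 1 in each ago18HM library at 0.5 mm, 0 to 1 at 2 mm and 0 at 5 mm, and in ago18HT 2 to 5, 0 to 2 and 0 to 1. As shares of the well-paired sites of a library, these were 4.35 to 12.5%, 0 to 2.22% and 0% in ago18HM. In ago18HT they were 5.41 to 10%, 0 to 3.51% and 0 to 2.17%, so the shares overlapped at 0.5 and 2 mm. Among poorly paired sites 0 to 1.39% passed in ago18HM libraries and 0 to 0.551% in ago18HT libraries. The part of depth in these counts was not tested.

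For the phasiRNA of 21PHAS_4249_B73, a cut at position 890 of Zm00001eb329960 was predicted at a score of 4. This site had the lowest p between the genotypes. It was also the site listed in most B73 and *ago18* libraries. In B73 it had 1.74 and 1.60 RPM at 0.4 mm and 0.944 and 0.231 RPM at 2 mm. In ago18HT it had 1.10 and 1.77 RPM at 0.5 mm, 1.88, 0.374 and 1.10 RPM at 2 mm and 1.25, 0.975 and 2.03 RPM at 5 mm. In ago18HM it had 0, 1.30 and 0 RPM at 0.5 mm, 0.106, 0.249 and 0 RPM at 2 mm and 1.60, 0.525 and 1.44 RPM at 5 mm. The genotypes did not overlap at 2 mm and overlapped at 0.5 and 5 mm. The difference of ago18HM minus ago18HT was -1.73 ± 0.56 (SE) on the log2(RPM + 0.1) scale over 17 libraries. In limma its p was 0.0068 before and 0.640 after adjustment. It passed in no library.

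**Figure D5:**
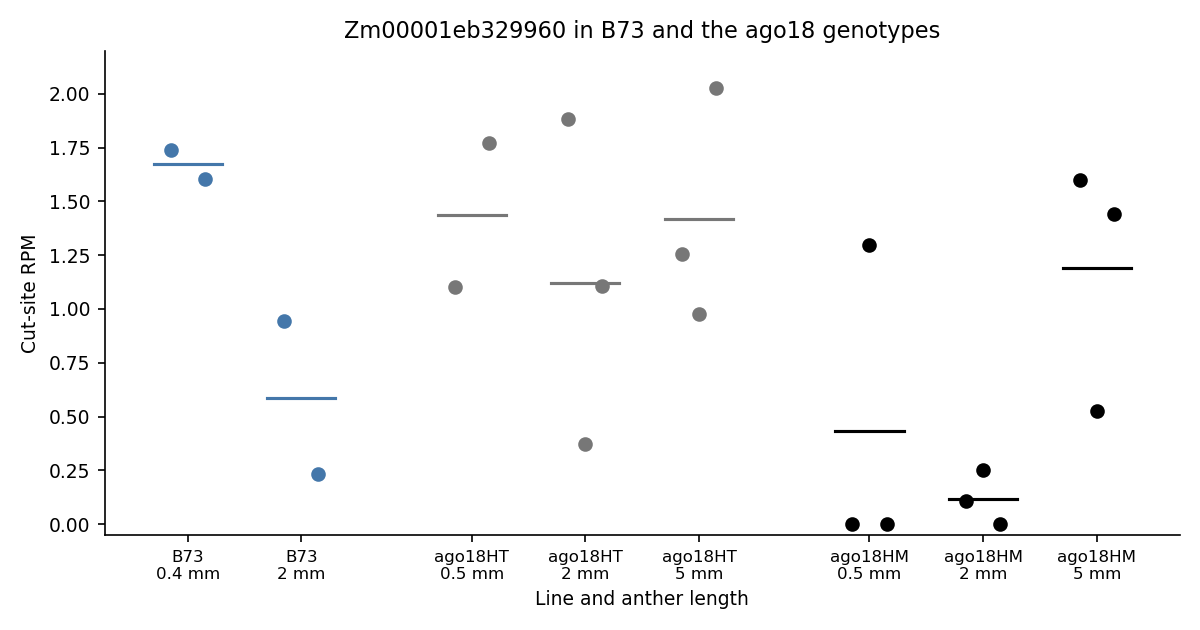
RPM at the cut site of Zm00001eb329960 (vertical axis) in each library of B73, ago18HT and ago18HM by anther length, with group means as lines. At 2 mm the ago18HM libraries lie at 0 to 0.249 RPM, below the ago18HT libraries at 0.374 to 1.88 RPM, and at 5 mm the genotypes overlap.

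The *ago18* gene with the highest median, Zm00001eb404630, had 2.25 RPM in an ago18HM library at 0.5 mm, where it passed on 5 reads, and 0.377 RPM in another at 2 mm, and was unlisted in the other *ago18* libraries. Over all lengths, 111 genes were listed in both ago18HM and ago18HT, which is 60.3% of the 184 ago18HM genes and 52.6% of the 211 ago18HT genes. B73 shared 91 of its 141 genes (64.5%) with ago18HT and 84 (59.6%) with ago18HM, and 74 genes were listed in all of them. The overlap over all phasiRNA sites was not computed. Within the *ago18* groups only 2.27 to 22.5% of genes appeared in all replicates. At 0.5 mm the ago18HM libraries were also shallower, and the part of depth in these overlaps was not tested.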

How the data were processed

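The authors made a nanoPARE and a Smart-seq2 library per sample and mapped reads to B73 RefGen_v5 or to version 1 assemblies. They ran EndCut per library without pooling. In the deposited tables the authors give each site an RPM of the reads starting there, an Allen score and an adjusted p-value. The deposited fold change was not used. RIL003 was left out, as the sites were defined without it, and NC358 was not analysed here. Each locus has 1 query sequence in the tables. This was taken to be the major phasiRNA of the locus in the study's locus table, which also gave positions. Sequences were found for 738 of 757 loci.

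Splice forms of a gene were joined where the source and the RPM in every library were the same, and an RPM was called equal to that of a *PHAS* site only when identical. Depth came from the modal RPM (80.7 to 89.9% of values were whole reads within 0.005). Most values thus moved in steps of 1 read, while 15.7% of the well-paired values were below 1 read. Genes and summed RPM per library were compared as log2(genes + 1) and log2 RPM by exact two-sided permutation tests, adjusted together by the Benjamini-Hochberg method. Sites listed in at least 2 libraries were fitted on log2(RPM + 0.1) in limma 3.58.1 (R 4.3.3) and adjusted over all phasiRNA sites of a contrast. Both were tested on simulated data. P-values of the permutation and limma tests measure the spread between plants of a group, or between lines for teosintes against maize. The deposited adjusted p-values belong to a site within 1 library and measure no such spread. Genes named were those positive in a group, those listed in most libraries or with the highest median per line, up to 5 lowest limma p-values per contrast and the study's list. The sites, lists and tests were chosen with earlier results of these data known. Alternatives were other Allen limits, passing sites only, a minimum RPM, p-value, replicate and pseudocount limits, other filters, a replicate block and the omission of single libraries. Genes per M reads and the 2- and 5-mm libraries alone were chosen after seeing the data.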

Additional observations from a re-analysis of the deposited data

Results flagged for a closer look

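The shift between lengths differed in direction among lines, in that every library moved one way in some lines and the opposite way in others, and these differences were not tested. For genes per library, as the log2 difference of the shorter minus the longer anthers, every shorter Il14H library was higher (0.40), while every shorter library was lower in HP301 (-0.24) and in TIL25 (-1.76). For summed RPM, every shorter library was higher in HP301 (0.38) and Il14H (0.41) and lower in B73 (-0.28). Depth moved the same way as the gene counts in HP301 (9.08 to 10.5 M reads at 0.4 mm, 13.2 to 18.7 M at 2 mm), in Il14H (10.4 to 11.6 and 7.55 to 8.65 M) and in TIL25 (1.71 to 2.56 and 4.33 to 5.97 M). Its part was not tested.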

How the results depend on the processing

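Directions between groups depended on which sites were counted. The log2 difference in genes per library between 0.4 and 2 mm in maize, -0.10, became 0.29 at an Allen score of at most 3, 0.60 for passing sites and 0.13 with a minimum of 1 read of the shallowest library. The TIL11 difference of 0.19 became -0.31 for passing sites, and that of TIL25, -1.76, became 0.15 with the minimum. For *ago18* the difference was 0.41 genes per M reads, which is not on a log scale. For teosintes against maize the log2 difference was 0.33 for passing sites and 0.38 with the minimum. Without a log it was 2.72 genes per M reads. Summed RPM turned to -0.017 in maize with no Allen limit, -0.82 in TIL11 for passing sites, 0.89 in TIL25 with the minimum and 0.0050 in *ago18* at a score of at most 3. Of these only the 0.60 passed its test, whose adjustment did not cover the number of settings tried. Of 116 settings, 82 left direction and call as they were. Positive genes were 91 where 1 library was enough and 14 with no Allen limit, instead of 9.

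Calls of single sites were fragile. With pseudocounts of 0.5 and 0.02 RPM, B73 had 1 and 15 sites instead of 8 and TIL11 0 and 2 instead of 1, and at 0.02 Il14H had 3 and TIL25 2. With no filter on libraries there were 0 in B73, Il14H, Oh43 and TIL25 and 2 in TIL11, and with at least 3 libraries 0 in B73, Il14H and Oh43 and 3 in TIL25. For the 13 called genes, 28 of 102 settings stayed past the threshold and 0 reversed.

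Leaving out 1 library at a time gave -0.18 to -0.01 (genes) and -0.056 to 0.13 (summed RPM) in maize, 0.12 to 0.29 and 0.22 to 0.32 in TIL11, -2.05 to -1.42 and -0.62 to -0.30 in TIL25, and -0.58 to -0.35 and -0.19 to -0.04 in *ago18*. The maize RPM difference turned negative without B73 replicate 1 or Oh43 replicate 2 at 0.4 mm, or Oh43 replicate 2 at 2 mm. Sites called ranged from 0 to 0 in B73 and Il14H, 0 to 3 in Oh43, 0 to 6 in TIL11 and 0 to 9 in TIL25. Deviations of same-numbered libraries from their group means had correlations from -0.318 to 0.233. In groups of 2 libraries such deviations mirror each other, and most listed values were at most 1 read. These correlations therefore cannot decide whether replicate numbers pair the libraries. With a replicate block, differences in genes were -0.14 in maize, 0.22 in TIL11, -1.76 in TIL25 and -0.45 in *ago18*, those in summed RPM 0.05, 0.29, -0.46 and -0.16, and sites called were 0 in B73, Il14H, TIL11 and TIL25 and 2 in Oh43. Depth limits every value: below 3 M reads 1 read is worth more than the median site.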

Other observations

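The first base of the phasiRNAs differed between genomes, as the authors also report for the major small RNAs of these loci. They place TIL25 among the genomes enriched for a first C. It was left out here, and its list of loci at hand was incomplete. Among all listed *21-PHAS* loci, 75.3% of 417 sequences began with A in B73, 78.7% of 445 in HP301 and 79.1% of 422 in Oh43. In Il14H 18.9% of 445 began with A and 42.9% with C, and in TIL11 19.4% of 444 with A and 41.9% with C. Sequences with a well-paired target gene had like shares, with A first in 71.5% of 179 in B73, 78.1% in HP301, 81.2% of 101 in Oh43, 19.0% of 116 in Il14H and 16.2% of 167 in TIL11.

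The genomes also fell into the same groups by shared sequences. B73 shared 189 sequences with HP301 (45.3% of the B73 sequences and 42.5% of those of HP301) and 201 with Oh43 (48.2% and 47.6%). Il14H shared 179 with TIL11 (40.2% and 40.3%), but 77 with B73 (18.5% and 17.3%). How the query sequence of a locus was chosen in each genome is not given in the sources used here, and its part in these shares was not tested.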
